A study of Mus musculus with 3 samples.

Results

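Foxo1, Foxo3, Foxo4 and Foxp1 encode 4 forkhead transcription factors, and the positions of PU.1 along their genes were described from ChIP-seq peak lists of a mouse pro-B cell line. The genes were taken by name, and every peak that overlapped the RefSeq span of a gene, or the 20 kb on either side of it, was assigned to that gene. By this rule the 4 genes, of 21887 protein-coding genes in all, held 71 of the 74494 peaks of PU.1 replicate 2, 5 of the 6169 peaks of replicate 3 and 51 of the 49385 intervals of the merged list. The libraries came from i660BM cells, a C57BL/6 line that carries a doxycycline-inducible PU.1, grown with IL-7. Both PU.1 libraries were from cells induced for 24 h with 70 ng/ml doxycycline, and chromatin was precipitated with a rabbit polyclonal antibody to PU.1. The third sample of the series, input DNA from the same cell type, and uninduced cells were not analysed here, so binding that follows induction and binding already present before it cannot be told apart. All values are from 1 cell line, nothing in the labels says that the PU.1 libraries were separate cultures, and no expression was measured that could check the pro-B label.

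Forkhead proteins bind DNA through a winged-helix domain. The FOXO proteins are held in check by phosphoinositide 3-kinase and AKT, whose phosphorylation sends them out of the nucleus, so they act when growth factor signalling is low. In B cell precursors Foxo1 is needed for expression of the interleukin-7 receptor and of the recombinase genes Rag1 and Rag2, and Foxp1 is needed for the passage from pro-B to pre-B cells. PU.1 belongs to the ETS family, whose members bind purine-rich DNA around the letters GGAA.

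The replicates differed greatly in the length of their lists. Peak scores, taken to be the negative log10 of a p-value multiplied by 10, had medians of 232 in replicate 2 and 136 in replicate 3, and neither list goes below 70. A score rises with read depth, which the peak lists do not give, so scores were set side by side only within 1 list. Scores at or above 3100, reached by 2656 peaks of replicate 2, are near a ceiling and cannot be ranked among themselves. A shared region is a merged stretch holding overlapping peaks of both replicates, and there were 6133.

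The start sites of these genes differed in whether a peak lay over them, and their sequences are shown for that reason. RefSeq (GRCm38.p6, the build called mm10) gave 5 promoter windows for 3 of the genes, each of 300 bases from 250 before the start to 50 from the start on. They are written 5′ to 3′ on the strand of the gene, with the letters GAGGAA, or TTCCTC where it is read on the opposite strand, in capitals. This purine box is the inner part of the sequence that PU.1 is known to prefer. RefSeq gave windows for 3 Foxp1 starts, numbered along the gene, which runs on the minus strand. The Foxp1 span reaches upstream of the first of these, to chr6:99522746, and no window was given for that end.
Foxo1 start, chr3:52268087-52268386, plus strand, no peak: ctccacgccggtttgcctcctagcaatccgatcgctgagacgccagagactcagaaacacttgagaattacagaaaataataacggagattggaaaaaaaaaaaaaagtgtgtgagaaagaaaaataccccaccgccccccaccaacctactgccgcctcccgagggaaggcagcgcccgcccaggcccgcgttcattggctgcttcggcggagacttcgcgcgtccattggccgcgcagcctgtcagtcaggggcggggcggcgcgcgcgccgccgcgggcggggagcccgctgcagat
Foxo3 start, chr10:42276646-42276945, minus strand, under a replicate 2 peak: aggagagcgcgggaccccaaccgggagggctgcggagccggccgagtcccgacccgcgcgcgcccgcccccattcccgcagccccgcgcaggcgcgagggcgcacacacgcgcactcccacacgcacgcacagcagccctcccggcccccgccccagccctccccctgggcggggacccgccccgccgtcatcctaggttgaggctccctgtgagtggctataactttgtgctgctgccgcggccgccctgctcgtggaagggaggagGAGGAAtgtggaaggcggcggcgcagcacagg
Foxp1, the first start, chr6:99520944-99521243, minus strand, no peak: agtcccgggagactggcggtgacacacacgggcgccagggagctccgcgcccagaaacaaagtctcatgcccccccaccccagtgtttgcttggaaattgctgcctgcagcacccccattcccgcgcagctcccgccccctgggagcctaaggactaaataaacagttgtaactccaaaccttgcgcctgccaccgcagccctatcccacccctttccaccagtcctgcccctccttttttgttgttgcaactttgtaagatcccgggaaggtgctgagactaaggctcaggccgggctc
Foxp1, the second start, chr6:99266466-99266765, minus strand, under a replicate 2 peak: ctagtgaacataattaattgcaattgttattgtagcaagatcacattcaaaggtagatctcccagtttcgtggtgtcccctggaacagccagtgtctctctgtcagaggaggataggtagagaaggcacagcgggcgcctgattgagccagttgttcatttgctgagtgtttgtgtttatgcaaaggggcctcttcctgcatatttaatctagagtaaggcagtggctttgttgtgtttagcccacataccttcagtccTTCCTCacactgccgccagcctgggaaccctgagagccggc
Foxp1, the third start, chr6:99028249-99028548, minus strand, under a replicate 2 peak: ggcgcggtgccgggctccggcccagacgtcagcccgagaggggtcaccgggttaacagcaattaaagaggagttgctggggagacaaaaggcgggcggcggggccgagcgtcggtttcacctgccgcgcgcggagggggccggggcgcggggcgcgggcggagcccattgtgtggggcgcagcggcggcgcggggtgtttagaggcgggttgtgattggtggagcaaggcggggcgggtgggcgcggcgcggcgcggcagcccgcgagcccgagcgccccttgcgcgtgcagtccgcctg

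A replicate 2 peak overlapped 3 of these 5 windows, against 27.4% of 32817 RefSeq promoter windows. A merged interval overlapped 2 of them, those of Foxo3 and of the third Foxp1 start, against 23.1% of all windows. A replicate 3 peak overlapped none, against 2.23%. The box GAGGAA occurred once in the Foxo3 window, starting at base 19 counted from the start site as base 1, and once on the opposite strand in the second Foxp1 window, starting at base 10. It was in neither of the windows without a peak, nor in that of the third Foxp1 start, and 28.3% of all promoter windows hold it on either strand. The share was 31.9% of all windows under a replicate 2 peak and 26.9% of those with none, so most windows of either kind lack it. The longer GAGGAAGT, in 3.2% of all windows, was in none of the 5. The ETS core GGAA, which lies inside both longer words and is in 96% of windows, was absent from the window of the third Foxp1 start, although a peak of 1280 bp scored 616 ran across and beyond that window. The letters TAAACA, the inner part of the forkhead motif GTAAACA, occurred in all 3 Foxp1 windows and in neither of the others, against 13.4% of all windows, and the full GTAAACA, in 3.65% of windows, was in none. Such matches describe the letters of these windows and do not mark bound sites.

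Of the 4 genes, 3 had a replicate 2 peak, as had 84.2% of protein-coding genes. A replicate 3 peak was found at 2 of them, Foxo3 and Foxp1, against 24.1%, and a shared region at the same 2, against 24.2%. A merged interval was found at 3, against 76.1%. Because longer genes offer longer windows, each gene was also set beside the genes at least as long as itself. Of the 155 genes at least as long as Foxp1, 50.3% had a shared region, and of the 2590 at least as long as Foxo3, 41% did. The share was 39.6% of the 3061 genes at least as long as Foxo1 and 28.2% of the 15792 at least as long as Foxo4. A replicate 2 peak was found at 100% of genes at least as long as Foxp1, 96.8% for Foxo3, 96.7% for Foxo1 and 90.3% for Foxo4. With 4 genes, nothing was read from these counts. The number of replicate 2 peaks ran in the order of the spans, with 53 at Foxp1, 11 at Foxo3, 7 at Foxo1 and 0 at Foxo4.

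Foxp1, a factor of the FOXP family that acts mostly as a repressor, carried 53 replicate 2 peaks, the highest number of any protein-coding gene. Its span of 597 kb (chr6:98925342-99522746) overlaps no other protein-coding gene, nor do its flanks. The non-coding genes Gm19665, Gm38865, Gm51278, Gm52870 and Gm32882 lie inside it. Of these, Gm52870 and Gm32882 each held 1 replicate 2 peak, and none held a replicate 3 peak. After Foxp1 by number of replicate 2 peaks came Arhgap26 with 49 in a longer window, Inpp4b with 47 and Immp2l with 41. Foxp1 also ranked first with its 38 merged intervals, ahead of Inpp4b with 35, and with the 50 peaks of its span alone. It ranked first with 43 peaks when scores of at least 100 were required, and second with 27 peaks at or above the list's median. Strong peaks were less unusual. With 8 peaks scored 1000 or more it ranked 12, level with 12 other genes, and with 4 replicate 3 peaks it ranked 27, level with 66 others. These rankings were chosen after the data were seen.

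Per unit of length the Foxp1 window was also full beside other long genes. It held 8.31 replicate 2 peaks per 100 kb, against a median of 1.31 among genes at least as long, and it was the densest of those 155. Arhgap26 followed at 6.01 and Lpp at 5.79 per 100 kb. Short genes were often denser, and 18.1% of all protein-coding genes had windows at least as dense as Foxp1. Foxo3 held 8.16 peaks per 100 kb and Foxo1 5.75, against medians of 2.72 and 2.92 among genes at least as long as each. Of those genes, 3.75% were at least as dense as Foxo3 and 17.7% at least as dense as Foxo1. Peaks covered 9.39% of the Foxp1 window, 9.98% of the Foxo3 window and 6.22% of the Foxo1 window, against a median of 4.37% over all protein-coding genes.

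**Figure D1:**
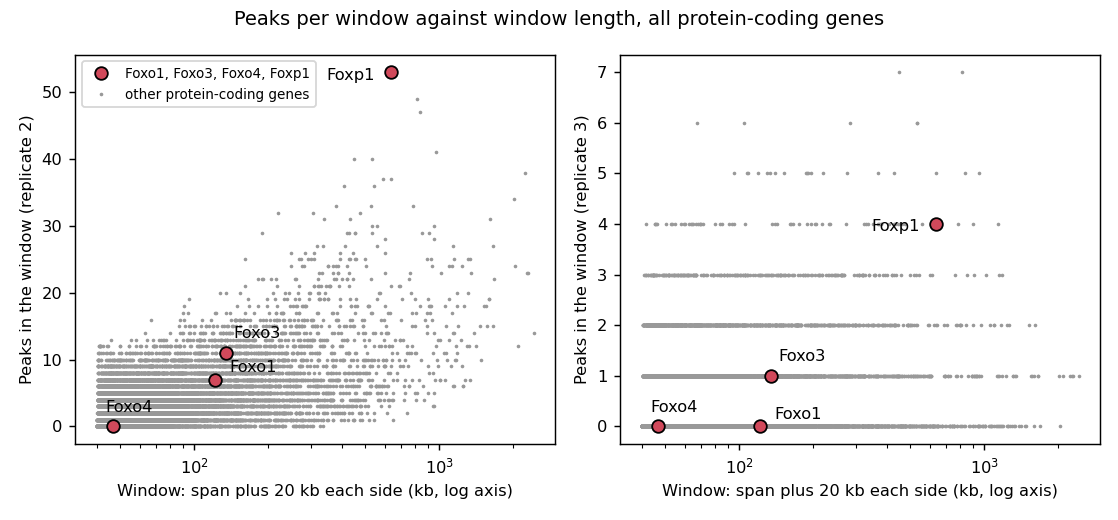
Number of replicate 2 peaks (left) and replicate 3 peaks (right) in the window of each protein-coding gene against the length of that window in kb, on a log axis. The named genes are red and all others grey. Foxp1 stands above every grey point on the left with 53 peaks, and on the right its 4 peaks lie among those of other long genes.

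The replicate 2 peaks of Foxp1 were not spread evenly along the gene. Between the first and the second start, a stretch of 254 kb, there were 31 peaks, or 12.2 per 100 kb. Between the second and the third start, over 238 kb, there were 13, or 5.46 per 100 kb, and from the third start to the end of the span 5 peaks lay over 103 kb, or 4.86 per 100 kb. Middles of 4 peaks lay outside, 2 before the first start and 2 beyond the far end of the span. Among those 31 peaks the median score was 247, while it was 527 for the 13 between the second and the third start and 94.8 for the last 5. The most crowded stretch therefore had a lower median score than the stretch next to it.

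Within the crowded part, the fullest 100 kb (chr6:99263086-99363085, picked after the peaks were seen) held 21 replicate 2 peaks. It starts just past the second start and reaches back toward the first. Of all 74494 stretches of 100 kb that open at a replicate 2 peak, 47 held as many, or 0.0631%, with a median of 5. Those 47 overlap into 12 separate loci. Neighbouring peaks in the Foxp1 window stood a median of 6.4 kb apart, with 7 of 52 gaps under 1 kb. The widest gap, 71.9 kb, lay at the far end of the gene.

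All 4 replicate 3 peaks of Foxp1 fell on its highest replicate 2 peaks. The highest, chr6:99186992-99189004, scored 3100 in replicate 2, with a replicate 3 peak scored 268, and lay 78.5 kb past the second start. The next, chr6:99437321-99438732, scored 2940.1 in replicate 2 and 202 in replicate 3, and lay 83 kb past the first start. The peak at chr6:99007149-99008293 scored 2668 in replicate 2 and 127 in replicate 3, and lay 20.6 kb past the third start. The peak at chr6:99312628-99313795 scored 2497 in replicate 2 and 147 in replicate 3, and lay 46.7 kb before the second start. Each of the 3 stretches marked off by the starts therefore held at least 1 region seen in both replicates, and none of the 4 lay over a start site. Replicate 3 peaks were inside the replicate 2 peaks along their whole length, with middles 14 to 111 bp apart. In the replicate 3 list 19.7% of peaks scored as high as the first of these and 54% as high as the one scored 127, which places the replicate 3 peaks of Foxp1 between the upper part and the middle of that list.

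The fifth replicate 2 peak of Foxp1 by score, chr6:99301823-99303851, reached 2266 and had no replicate 3 peak. It lay 8.78 kb from the shared region scored 2497, inside the fullest 100 kb. Below it came 48 further peaks with scores from 71 to 1547, none with a replicate 3 peak. At the starts the scores were low or moderate. The peak over the third start, chr6:99028233-99029512, scored 616, and that over the second, chr6:99265141-99267026, scored 120.3 and has no interval in the merged list. Nearest to the first start was a peak scored 247, its middle 2 kb past the start. A peak scored 112 lay across the upper end of the RefSeq span, the upstream end of this gene, where no promoter window was given.

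**Figure D2:**
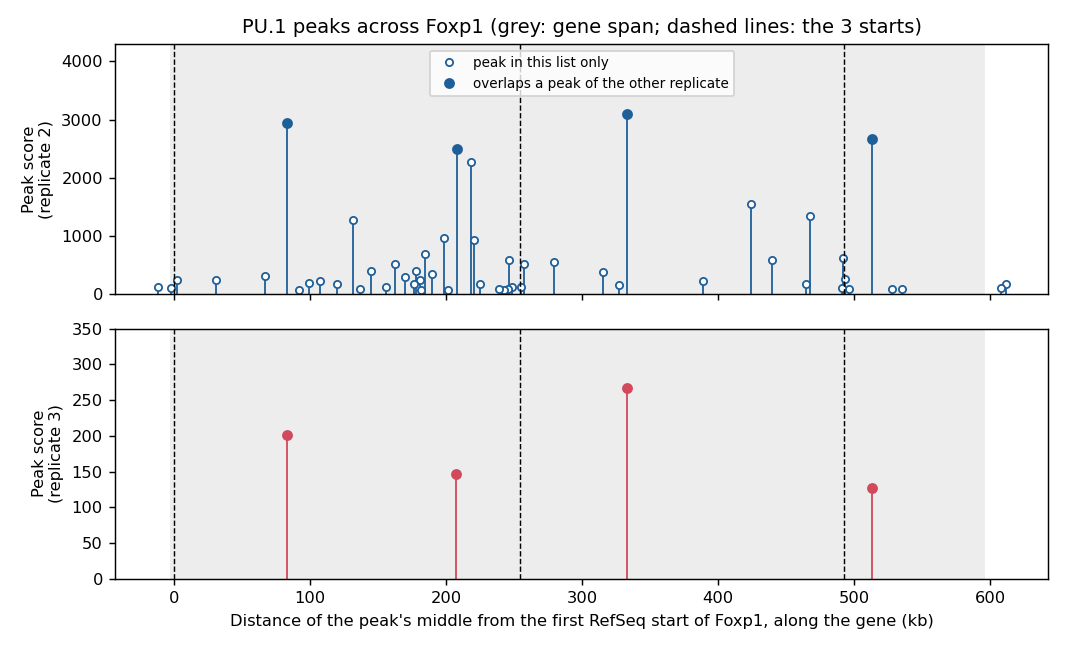
Peak scores of replicate 2 (top) and replicate 3 (bottom, on its own scale) against the distance in kb of the peak's middle from the first Foxp1 start, along the gene. Filled points overlap a peak of the other replicate, the grey area is the RefSeq span and dashed lines are the 3 starts. The 4 filled points stand at 2497 to 3100 in replicate 2, and open points crowd between the first and the second start.

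Foxo3, a FOXO factor that restrains proliferation and promotes apoptosis in many cells, carried 11 replicate 2 peaks and 1 replicate 3 peak (span chr10:42181845-42276695, 94.9 kb). Its shared region, chr10:42270193-42272172, scored 3125 in replicate 2 and 166 in replicate 3. This region is inside the gene, its middle 5.51 kb past the start, and inside the span of the lncRNA gene Gm38485, which overlaps Foxo3. The replicate 3 peak covered 53% of the replicate 2 peak, and their middles were 290 bp apart. A separate replicate 2 peak scored 675 covered the start itself (chr10:42275221-42277231). A peak scored 96.4 lay 0.063 kb from it on the upstream side, and a peak scored 185 had its middle 7.29 kb past the start. These 4 of the 11 peaks had their middles between 1.13 kb before and 7.29 kb past the start.

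Further along Foxo3, peaks scored 172 and 543 had their middles 47 and 56 kb past the start. Near the far end of the gene, peaks scored 182, 518 and 315 lay 77.7, 81.8 and 88.1 kb past the start. In the flanks, a peak scored 332 lay 18.3 kb before the start and one scored 90.4 lay beyond the far end. The stretch of 38.7 kb between the peaks at 47 and 7.29 kb was free of replicate 2 peaks. Apart from the shared region, every Foxo3 peak scored under 700 and had no replicate 3 peak.

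Foxo1, the FOXO factor on which B cell precursors depend, carried 7 replicate 2 peaks and no replicate 3 peak (span chr3:52268337-52350109, 81.8 kb). Its highest peak, chr3:52299183-52300866, scored 506, and 30.5% of the replicate 2 list scored as high. Before the start, the nearest peak scored 202, at chr3:52263689-52264726, which ends 3361 bp short of the promoter window. Inside the gene the remaining peaks scored 72.3, 72.4, 114 and 213, and 1 peak beyond the far end scored 141. Of the 7 peaks 1 was above the list median of 232, and 4 had an interval in the merged list. The lncRNA gene Gm30125 reaches into the flank before the start, and no peak of the Foxo1 window lay in the part of it inside that flank.

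Foxo4, the smallest of these genes at 6.61 kb (chrX:101254261-101260873), had no peak in replicate 2, replicate 3 or the merged list within 20 kb. In all, 3455 protein-coding genes had no replicate 2 peak by this rule. The window also holds Il2rg, which encodes the common gamma chain through which the interleukin-7 receptor signals. It further holds Gm614, the snRNA gene Gm22472 and one end of Med12, a subunit gene of the Mediator complex. The nearest replicate 2 peak, scored 288, was 24.2 kb away, inside Med12, and the nearest replicate 3 peak, scored 137, was 190.0 kb away, inside Itgb1bp2. A peak list records what passed the caller's threshold, so binding below that threshold was not detectable here.

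**Figure D3:**
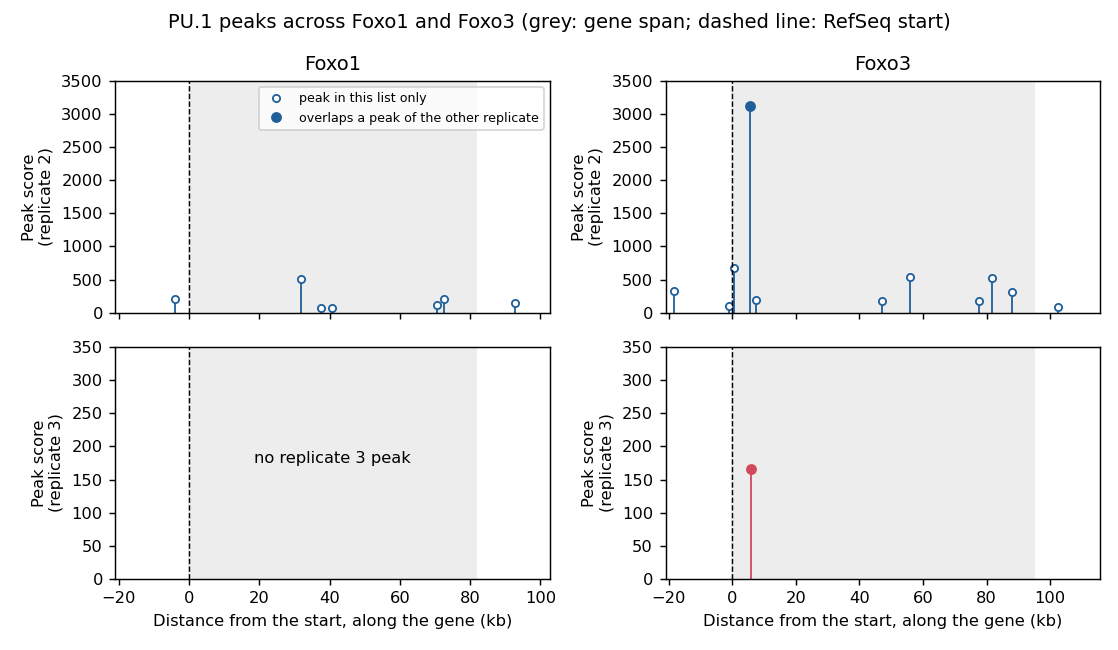
Peak scores of replicate 2 (top) and replicate 3 (bottom, on its own scale) against the distance in kb of the peak's middle from the RefSeq start of Foxo1 (left) and Foxo3 (right), along each gene. Filled points overlap a peak of the other replicate and the grey area is the gene span. Foxo3 has 1 filled point at 3125, close to its start, and no Foxo1 point is above 506.

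Taken by score, the replicate 2 peaks of the 3 genes with peaks overlapped in range. The median was 141 over the 7 peaks of Foxo1, 315 over the 11 of Foxo3 and 244 over the 53 of Foxp1, against 232 in the whole list. Peaks of 1 gene are not replicates, so no test was made. Of the 71 peaks 14 scored under 100, while 18.3% of the whole list did. Peaks that overlapped the merged list numbered 53 of 71, against 66.5% of the whole list. Of the peaks without a merged interval the highest scored 122.

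A replicate 3 peak was present at 5 of the 71 replicate 2 peaks, against 8.24% of the whole list. These 5 were the 5 highest of the 71, with scores of 2497 or more, and the highest without one scored 2266. In the whole list 92.2% of the 4044 peaks scoring 2497 or more had a replicate 3 peak.

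**Figure D4:**
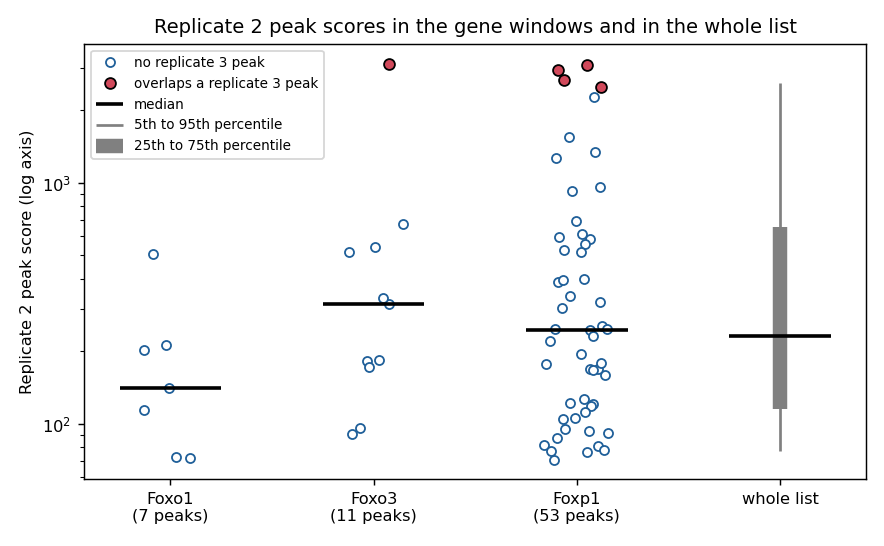
Replicate 2 peak scores on a log axis for Foxo1, Foxo3 and Foxp1, with the whole list at the right. Points are peaks, red ones overlap a replicate 3 peak, black bars are medians, and the grey bars give the 25th to 75th and the 5th to 95th percentile of the whole list. The 5 red points are the highest of the 71, and the 3 gene medians of 141, 315 and 244 lie inside the middle of the whole list.

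For each gene the 3 protein-coding genes with the nearest pattern were found from the number of peaks in each of the 2 libraries and the window length, all on a log2 scale. For Foxp1 these were Inpp4b with 47 replicate 2 and 5 replicate 3 peaks, Lpp with 37 and 5, and Samd12 with 36 and 3, at distances of 0.496 to 0.674. For Foxo3 they were Arhgef10, Acot7 and Ergic1, each with 11 and 1 peaks like Foxo3 itself. For Foxo1 they were Nr2c2, Cpne5 and Bcat1, each with 7 replicate 2 peaks and no replicate 3 peak. For Foxo4 they were Dmrt2, 1700088E04Rik and LOC115486430, all without peaks. Distances for these 3 genes were at most 0.0141, so Foxp1 had no gene as close to it as the others had. This follows from its rank and is no further trait, since no other gene had 53 replicate 2 peaks.

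Among the remaining forkhead genes, 9 of 40 had a shared region, or 22.5%, against 24.2% of protein-coding genes. Their windows held a median of 3 replicate 2 peaks, the same as the median of all protein-coding genes, and their median span was 4.28 kb, against 17.2 kb. Foxp2, the FOXP relative of Foxp1 known for its role in the brain, is nearly as long at 541 kb and held 3 replicate 2 peaks, the highest scored 650.2, and no replicate 3 peak. Foxp4 held 10 replicate 2 peaks up to 1620, and Foxp3, the regulatory T cell factor, held 4 up to 1179, neither with a replicate 3 peak. Foxo6, the remaining FOXO gene, held 1 replicate 2 peak scored 602. Foxp2, Foxp3, Foxp4 and Foxo6 thus had no shared region. Foxn3, a forkhead gene of 374 kb, held 27 replicate 2 peaks, 22 merged intervals and 2 shared regions, the better ranked scored 2973 in replicate 2 and 80.5 in replicate 3.

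The 4 other forkhead genes ranked best by their shared regions had those regions in flanks, while that of Foxn3 lay inside the gene. With a median span of 4.28 kb in this list, most of a typical window is flank. Foxk1, a factor that controls metabolic genes, had 3 shared regions, the strongest scored 3100 in replicate 2 and 1174 in replicate 3. Foxc2, a lymphatic vessel factor, and its neighbour Foxl1, a factor of the gut mesenchyme, were both reached by the same region, scored 2896 and 158. Foxn1, the thymic epithelium factor, had one scored 2761 and 138.

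Regulators of FOXO proteins had a shared region at 22 of 35 genes, or 62.9%, against 24.2% of protein-coding genes, with a median of 6 replicate 2 peaks and a median span of 65.9 kb. This list is longer in span than most genes, and the share with a shared region was 39.6% among genes at least as long as Foxo1. The list was also chosen with earlier results of these data known, so the difference was not read as a trait of the pathway. Pik3cg, a catalytic subunit of phosphoinositide 3-kinase, had a region scored 3100 in replicate 2 and 782 in replicate 3 across one end of its span (chr12:32207903-32209565). Ywhag and Ywhab, which encode 14-3-3 proteins that hold phosphorylated FOXO in the cytoplasm, had regions at an end of the span with replicate 3 scores of 745 and 505. Pik3ap1, an adaptor that brings phosphoinositide 3-kinase to the membrane in B cells, had 5 shared regions, the best ranked scored 3154 in replicate 2 and 212 in replicate 3. Inpp5d, of the same list, also had 5 shared regions, the best ranked scored 3100 in replicate 2 and 432 in replicate 3. Pik3ap1 came ahead of Inpp5d by replicate 2 scores near the ceiling, which cannot be ranked among themselves. Among those without a shared region, Akt1, a kinase that phosphorylates FOXO proteins, had 3 replicate 2 peaks up to 581, and Sirt1, which deacetylates them, had none.

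Genes known as FOXO targets had a shared region at 13 of 34, or 38.2%, against 24.2% of protein-coding genes, with a median of 4 replicate 2 peaks and a median span of 12.9 kb. With scores of at least 100 required, 6 of 34 had one, against 18.2% of protein-coding genes. This list too was chosen with earlier results of these data known. Syk, the tyrosine kinase below the B cell receptor, had its best-ranked region in the flank, scored 3100 in replicate 2 and 829 in replicate 3 (chr13:52571915-52573270). Ikzf1, which encodes Ikaros, held 20 replicate 2 peaks and 3 shared regions, the best ranked inside the gene with a replicate 3 score of 409. Blnk held 11 replicate 2 peaks and 4 shared regions. Pck1, a gluconeogenic enzyme gene, had a region in its flank scored 3100 and 375. Il7r held 9 replicate 2 peaks and 1 shared region, at 95.5 in replicate 3. Rag2 had 2 replicate 2 peaks and Rag1 had 1, with 1035 as the best score of both windows, and neither had a replicate 3 peak. The windows of these neighbouring genes overlap, so a peak can be counted for both.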

How the data were processed

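ChIP-seq peak lists of 2 PU.1 libraries (replicates 2 and 3 of 1 group) and a merged interval list were used. The authors used Trim Galore, Bowtie and, for peak calling, MACS 1.4.1 with build mm10, per the submitters' processing notes. The sources used here do not give the control for peak calling or the origin of the merged list. The deposited score per peak carries no normalization between libraries. In the merged list it is 0 in every row, so positions alone were used. Read depth is unknown.

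Coordinates are 1-based. Peaks sharing 1 bp or more overlapped. Gene spans (without exons) and promoter sequences are from RefSeq tables of GRCm38.p6, and all 109 list genes were matched by symbol. Overlaps were computed in Python 3.11.15 with pandas 2.3.3 and numpy 2.4.6, checked on simulated peaks. No test between groups was possible with 1 group, and values are descriptive. The genes and the 3 lists were chosen with earlier results of these data known. Beyond Foxo1, Foxo3, Foxo4 and Foxp1, the text names Foxo6, Foxp2, Foxp3, Foxp4, Rag1, Rag2 and Il7r, and per list up to 4 genes with the best mean rank of score in both replicates. It also names the 3 genes of nearest pattern per gene and genes overlapping the windows. Arhgap26, Immp2l, Akt1, Sirt1, Inpp5d, Itgb1bp2, Eif4e3, Foxn3, Fli1, Ppt1, Cap1, Mfsd2a, Ier5, Btg1, Fcgr2b and Fcgr4 were named after their values were seen. Alternatives were other windows, a score of at least 100, 50% overlap, each replicate alone and the merged list.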

Additional observations from a re-analysis of the deposited data

How the results depend on the processing

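No paired analysis was possible because both PU.1 libraries belong to 1 group. Of 56 recomputed counts, 31 stayed within 1.5 times the reported one. That number is no measure of robustness, because some counts could hardly move. Without replicate 2 only the 6169 replicate 3 peaks remain, and nearly all of them lie in the 6133 shared regions. A change from 2 to 3 of the 4 genes also stayed within the limit, although Foxo1 was then added. Foxo3 and Foxp1 kept their shared regions, 1 and 4, with the span alone, 5 kb, a score of at least 100 and 50% overlap. Other windows moved the following. With flanks of 100 kb the 4 genes held 110 replicate 2 peaks, 9 replicate 3 peaks and 9 shared regions. Genes with a shared region then numbered 11459, or 52.4% (5287, or 24.2%, with 20 kb), other forkhead genes 24 of 40 and FOXO targets 22 of 34. With 5 kb they were 3351 (15.3%), 4 and 8. With the span alone they were 2622 (12%), 2 and 6, with 14 of 35 regulators. With scores of at least 100, 5 of 40 other forkhead genes and 6 of 34 FOXO targets had a shared region, against 3993 genes (18.2%). By the merged list the 4 genes held 51 intervals. It reached 16653 genes (76.1%), 31 of 40 other forkhead genes, 34 of 35 regulators and 33 of 34 FOXO targets. Leaving out either replicate gave 2 or 3 of the 4 genes and 5 to 71 peaks in their windows. The genes reached were then 5265 to 18432 (24.1% to 84.2%). Those of the lists were 9 to 34 other forkhead genes, 22 to 34 regulators and 13 to 33 FOXO targets. Read depth is unknown, the cause of the short replicate 3 list was not tested, and a missing replicate 3 peak was not read as missing binding.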

Other observations

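Beyond the 20 kb flank, 3 shared regions lay within 100 kb of the far end of Foxo1, and Foxo1 is the nearest protein-coding gene to each. They were found after the window was widened to flanks of 100 kb, with which 52.4% of all protein-coding genes had a shared region. The first, chr3:52425322-52426488, was 75.2 kb from the gene, with scores of 3100 in replicate 2 and 415 in replicate 3. The second, chr3:52440875-52443159, was 90.8 kb away, with scores of 3100 and 148. The third, chr3:52443432-52445060, was 93.3 kb away, with scores of 3100 and 476. All 3 scored higher in replicate 2 than the best peak inside the Foxo1 window, at 506, and in replicate 3 the first and the third scored above every peak at Foxo3 and Foxp1, which reach 268. Which gene these regions act on, if any, was not tested. With the same widening, Foxp1 gained 1 shared region, at chr6:99618144-99620097, with scores of 2419 and 165, which is 95.4 kb from Foxp1 and 1.78 kb from Eif4e3. Foxo4 gained 5 replicate 2 peaks and no shared region, and Foxo3 gained 5 replicate 2 peaks and no shared region.

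The 12 loci with a 100 kb stretch holding at least 21 replicate 2 peaks included the Foxp1 one and one at Fli1, an ETS family gene on chromosome 9, with 33 peaks over the joined stretches. One on chromosome 4, with 28 peaks, overlapped Ppt1, Cap1 and Mfsd2a. Others lay at Ier5, Btg1 and the Fcgr2b and Fcgr4 cluster, and 1 on chromosome 8 overlapped no protein-coding gene. Not all of the 12 loci are named here, and the names do not describe them as a set.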
